A study of Mus musculus with 8 samples.

Results

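Smooth muscle of the skin was examined through 9 genes, Acta2, Actg2, Myh11, Tagln, Cnn1, Lmod1, Myocd, Itga8 and Npnt, which mark the arrector pili muscle, its anchorage to the hair follicle and the muscle of vessel walls. They were taken by gene symbol, 9 of the 18770 genes in the deposited table, and every member was found on 1 row. The study asked how alpinetin (AP), a plant flavonoid, acts on hair regrowth, and RNA was taken from dorsal skin of male wildtype C57BL/6 mice (C57BL/6J in the study's methods) aged 7-8 weeks at D4 after depilation. By the study's methods, interfollicular epidermis was removed and dermis with hair follicles was sequenced. Genes of differentiating epidermis were still counted in every library, as given below. The vehicle group (VC, n = 4) received 65% ethanol on the skin and the AP group (n = 4) received AP at 3 mg/ml in 20 µl of the same solvent, once a day from the day after depilation. Both groups were depilated, and no untreated skin was sequenced.

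The arrector pili is a small band of smooth muscle that runs from the bulge of the hair follicle, where the follicle stem cells sit, to the upper dermis, and raises the hair when sympathetic nerves release noradrenaline. Its cells contract by sliding smooth muscle myosin along actin filaments, and the genes for this machinery are switched on by serum response factor together with its partner myocardin. Nephronectin, laid down by bulge epithelium, is bound by the integrin alpha 8 on the muscle cells and anchors the muscle to the follicle. Smooth muscle cells of arteries and veins make the same contractile proteins, so most of these genes do not separate the arrector pili from vessels.

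The libraries differed in ways that bear on every value given here. Reads on genes numbered 7264151, 6833615, 6479827 and 6454563 in VC.1 to VC.4. All series of values below follow the library numbers in the same order. The AP libraries had 8507783, 10853773, 11190113 and 8863517 reads. The 13 mitochondrially encoded genes took 54.3%, 44.9%, 42.1% and 52.3% of the reads across VC, against 11.1%, 7.85%, 5.32% and 10.3% across AP. The mitochondrial share was higher in every VC library than in any AP library (exact permutation p = 0.0286, 2-sided, the smallest that 4 against 4 can give). Without these genes, 3080758 to 3762217 reads were left per VC library and 7561598 to 10594787 per AP library, so a gene of equal level was counted less deeply in VC. The values are reads divided by a size factor per library, called normalized counts here, and 3 reads corresponded to 4.10 to 5.63 normalized counts in VC and 1.49 to 2.18 in AP. Scaling by total reads in place of the size factors moved the median of all genes' log2 fold changes from 0.06 to 0.90, and limma then called 8670 genes higher and 65 lower. Fold changes below are given with the size factors, and calls made with total reads are not all listed.

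Some libraries stood apart within their group. AP.1 had a summed level of 95286 normalized counts over 16 skeletal muscle genes, just above the highest VC library (93729) and far above 12152, 7266 and 14932 in AP.2 to AP.4. AP.2 had the highest summed level of the 8 endothelial genes, 6266 normalized counts, against 2477 to 3022 in the other AP libraries. VC.4 had 14843 normalized counts over the 9 myofibroblast genes, against 4294 to 5470 in the other VC libraries. The columns could not be tied to single mice, and p-values over them measure the spread between these samples.

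All 9 members passed the filter on low values, which asked for 3 or more normalized counts in 4 or more of the 8 libraries and left 15964 genes to test. Of the 9 members, 4 were higher in AP at an adjusted p under 0.05 by limma (Myh11, Acta2, Actg2 and Lmod1), where 6.33% of all genes tested were called higher. None of the members was called lower by limma, where 4.0% of all genes were called lower at the same adjusted p, and 0 of 9 were lower by edgeR, by DESeq2 or by limma at an unadjusted p under 0.05. Higher calls numbered 4 by edgeR and 6 by DESeq2, where 1003 and 1677 of the 15964 genes were called higher. By limma at an unadjusted p under 0.05, 8 members were higher, and the share of all genes at that threshold is not given here. In 5 members every AP library lay above every VC library, as did 10.3% of all genes. With the cut-offs of the study (fold change over 1.5 with p under 0.01 before adjustment) applied to limma in place of its DESeq2 p-values, 6 members were higher in AP, against 8.26% of all genes. The samples were bulk tissue, in which fewer cells of a type and less RNA per cell cannot be told apart.

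Myh11, the heavy chain of smooth muscle myosin and the most restricted marker of differentiated smooth muscle among the members, lies on chr16:14194535-14291372 on the minus strand (mm10; Ensembl identifier ENSMUSG00000018830). It had 91.0, 142, 160 and 128 normalized counts across VC, against 781, 1691, 572 and 759 across AP. The lowest AP library was far above the highest VC library, and AP.2 stood out among the AP libraries. The means were 130.0 ± 29.2 (SD, n = 4) in VC and 951 ± 503 (SD, n = 4) in AP. The log2 fold change was 2.76 (SE 0.30, 95% confidence interval 2.10 to 3.43), the largest among the members, with a limma adjusted p of 0.0023. It was called in 23 of 23 alternatives, with adjusted p from 2.3e-13 (DESeq2) to 0.0135 (limma without an intensity trend). Without AP.2 the log2 fold change was 2.44, and without AP.1 and AP.2 together, a choice made after the data were seen, it was 2.36 (limma adjusted p = 0.0017).

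Acta2 encodes the alpha actin of vascular smooth muscle, which wound myofibroblasts also make, and lies on chr19:34241090-34255590 on the minus strand. It had 437, 383, 635 and 692 normalized counts across VC, against 1273, 1864, 723 and 1183 across AP. The groups did not overlap, but AP.3 was only a little above VC.4. The means were 537 ± 150.0 (SD, n = 4) and 1261 ± 469 (SD, n = 4). Acta2 rose by 1.20 on the log2 scale (SE 0.28, 95% confidence interval 0.58 to 1.81) with a limma adjusted p of 0.0258. The call was made in 17 of 23 alternatives. It was lost without VC.1 (limma adjusted p = 0.0636), without VC.2 (0.0510), without AP.2 (0.0674) and without AP.4 (0.0658), and also without an intensity trend (0.0746) and without AP.1 and AP.2 together (0.113).

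Actg2, the gamma actin of visceral smooth muscle, lies on chr6:83512905-83536265 on the minus strand and was counted with far fewer reads, 13 to 35 per VC library and 103 to 197 per AP library. Its level was 23.6, 19.2, 47.8 and 31.9 normalized counts across VC, against 74.7, 106, 61.3 and 81.5 across AP. Every AP library was above every VC library. Actg2 rose by 1.43 on the log2 scale (SE 0.35) with a limma adjusted p of 0.0300. The call was lost without VC.1 (limma adjusted p = 0.0550), VC.2 (0.0507), AP.2 (0.0899), AP.3 (0.0697) or AP.4 (0.0822), and without AP.1 and AP.2 together (0.140).

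Lmod1, leiomodin 1, starts new actin filaments in smooth muscle cells and lies on chr1:135324807-135368065 on the plus strand. It had 56.4, 76.8, 71.0 and 37.5 normalized counts across VC, against 143, 188, 80.2 and 124 across AP. The groups did not overlap, with AP.3 just above VC.2. Lmod1 rose by 1.12 on the log2 scale (SE 0.32) with a limma adjusted p of 0.0490, next to the threshold. It was called in 8 of 23 alternatives, and among the 8 fits with a library removed only that without VC.2 called it (limma adjusted p = 0.0486). In the rest the adjusted p ran from 0.0562 without VC.3 to 0.133 without AP.2.

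Tagln, transgelin, an early and abundant actin-binding protein of smooth muscle, lies on chr9:45929619-45936058 on the minus strand. It had 469, 494, 647 and 574 normalized counts across VC, against 957, 1478, 581 and 864 across AP. AP.3 lay among the VC libraries, and the other AP libraries lay above them. The log2 fold change was 0.76 (SE 0.25, 95% confidence interval 0.22 to 1.30), which was not called (limma adjusted p = 0.0677). It was called with 4 of 23 alternatives, among them the fit without AP.3 (limma adjusted p = 0.0488) and DESeq2 (adjusted p = 0.0240). Of the 1988 exon bases of Tagln, 1241 are shared with the antisense gene Gm48529, and the sources do not say whether reads were counted by strand, so reads of the pair cannot be told apart. Gm48529 had 477, 398, 709 and 510.0 normalized counts across VC, against 960.3, 1353, 556 and 887 across AP. These values were close to those of Tagln in each library. Gm48529, chosen for mention after its values were seen, was not called (limma adjusted p = 0.0666) but was without VC.3 (0.0497) or AP.3 (0.0488), with total counts (0.0013) and by DESeq2 (adjusted p = 0.0275).

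Cnn1, calponin 1, which binds actin and damps the myosin motor, lies on chr9:22099216-22109630 on the plus strand. It had 25.5, 35.5, 71.0 and 73.1 normalized counts across VC, against 98.6, 129, 65.8 and 108 across AP. The VC libraries fell into a lower and a higher pair, and AP.3 lay below the higher pair. For Cnn1 a log2 fold change of 1.05 (SE 0.38) was not called (limma adjusted p = 0.0928), and total counts was the only alternative of 23 that called it.

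**Figure D1:**
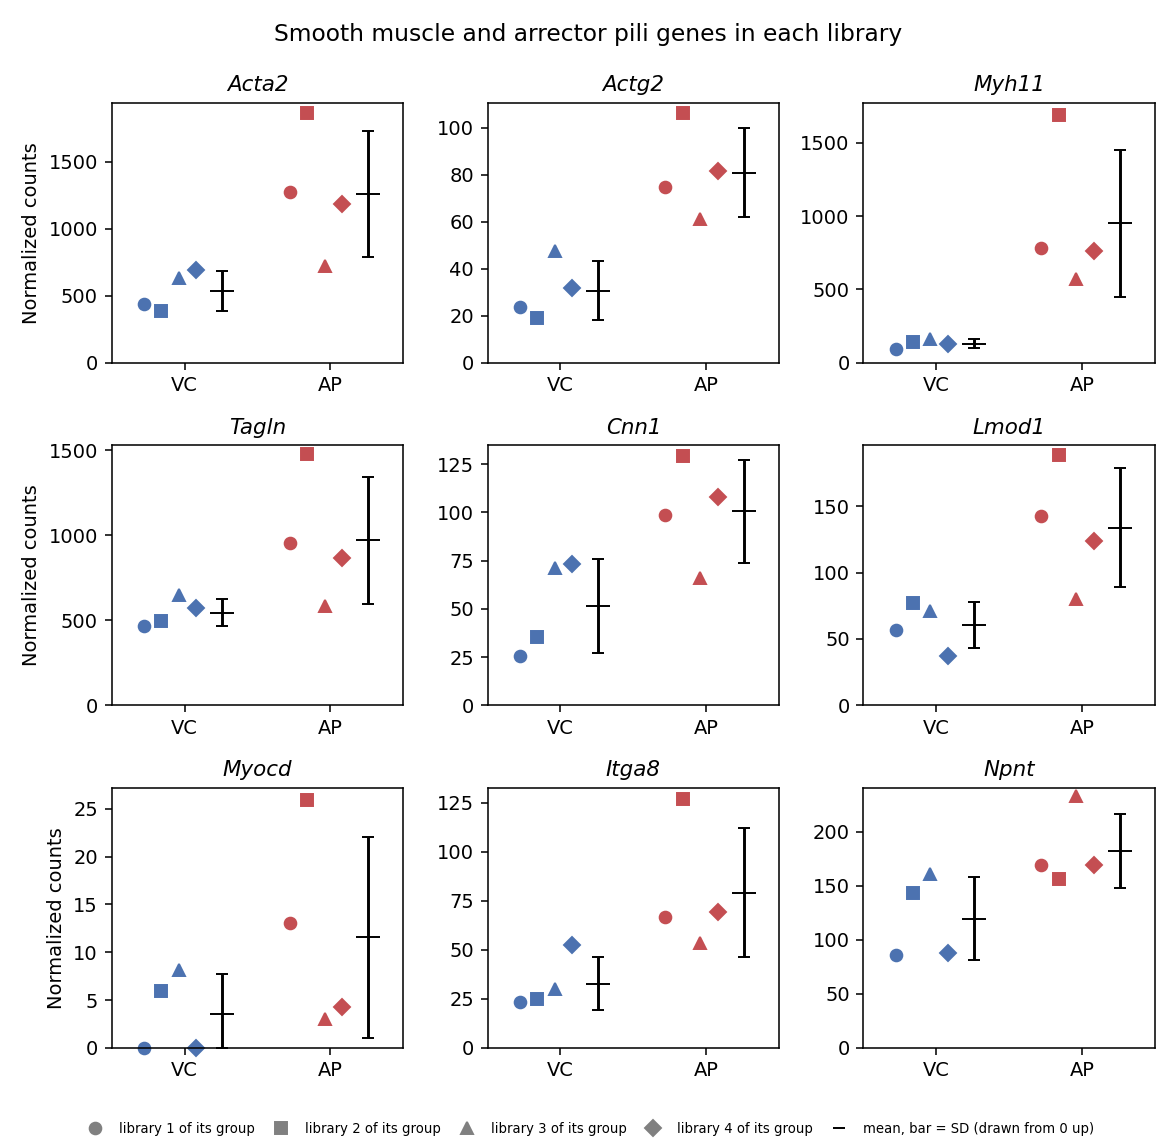
Normalized counts of the 9 members in each library (vertical axis, linear, from 0), with VC in blue and AP in red and the marker shape giving the library number. Horizontal ticks are group means and bars the SD (n = 4). AP.2 is the highest AP library in 8 of the 9 panels and AP.3 the lowest in 8, with Npnt the exception.

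Myocd, the coactivator that switches on the contractile genes, lies on chr11:65176561-65269989 on the minus strand and was near the floor of detection. It was counted with 0, 4, 6 and 0 reads across VC, against 18, 48, 6 and 6 reads across AP, or 0, 5.91, 8.19 and 0 against 13.1, 25.9, 2.99 and 4.29 normalized counts. AP.1 and AP.2 were above all other libraries, and AP.3 and AP.4 lay below VC.2 and VC.3. The log2 fold change of 1.74 (SE 0.97) was not called (limma adjusted p = 0.247), and none of the 21 alternatives that tested the gene called it.

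Itga8, the integrin chain by which arrector pili cells hold nephronectin, lies on chr2:12106632-12301922 on the minus strand. It had 23.6, 25.1, 30.0 and 52.5 normalized counts across VC, against 66.7, 127, 53.3 and 69.4 across AP. The groups did not overlap, with AP.3 barely above VC.4. For Itga8 a log2 fold change of 1.24 (SE 0.37) missed the threshold (limma adjusted p = 0.0548). It passed in 4 of 23 alternatives, among them the fit without VC.4 (limma adjusted p = 0.0374) and DESeq2 (adjusted p = 0.0135). Of its 7368 exon bases, 372 are shared with the antisense gene E030013I19Rik, which had 0, 0, 0 and 2 reads across VC, against 15, 29, 26 and 14 across AP. E030013I19Rik, also chosen for mention after its values were seen, met the filter by its AP libraries without need of VC. It was called higher (limma adjusted p = 0.0253, from 0.0507 to 0.108 with an AP library left out), and the call is not read as a result.

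Npnt, nephronectin itself, comes from the epithelium of the bulge more than from muscle and lies on chr3:132881745-132950291 on the minus strand. It had 85.5, 143, 161 and 88.1 normalized counts across VC, against 169, 156, 233 and 170 across AP. VC.3 lay above AP.2, so the groups overlapped. The log2 fold change of 0.64 (SE 0.26) was the smallest among the members and was not called (limma adjusted p = 0.121), with total counts the only alternative of 23 that called it.

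The members' median log2 fold change was 1.20, beside 0.06 over all genes, and 9 of 9 were above 0, beside 53.5% of all genes. The count of members called higher fell from 4 to 1, Myh11, without VC.1, without AP.2 and without AP.4, and to 2 without VC.2. Over all genes the count called higher fell from 1011 to 584, 385 and 257 without VC.1, AP.2 and AP.4, and was 988 without VC.2. Without AP.1 and AP.2 together, chosen after the data were seen, Myh11 was again the 1 member called, with 685 of all genes called higher. Scaled by total reads, 8 members were called higher, as were 8670 of all 16137 genes tested on that scale. The members' median was then 2.07, beside 0.90 for all genes. With mitochondrial genes left out of the totals, 3 members and 959 of 16001 genes were called higher, with medians of 1.24 and 0.10. With reads drawn down to the smallest library total, mitochondrial genes included, 5 members were called higher, as were 997 of 15782 genes. Itga8 was the member added. The part of the mitochondrial share in the members' values was not tested.

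Levels of different genes were compared per kb of exon. In VC, Tagln (275 ± 40.7 normalized counts per kb, SD, n = 4) and Acta2 (244 ± 68.3) came first and their ranges overlapped. Far below them followed Npnt (23.8), Actg2 (19.7), Cnn1 (18.7), Myh11 (17.1) and Lmod1 (15.3), each overlapping the next, then Itga8 (4.46) and Myocd (0.549). In AP the order was Acta2 (574 ± 213) and Tagln (488 ± 188), which overlapped, and then Myh11 alone (125 ± 66.1). Actg2 (52.0), Cnn1 (36.7), Npnt (36.2) and Lmod1 (33.9) followed, each overlapping the next, then Itga8 (10.7) and Myocd (1.80). Myh11 thus lay among the weaker contractile genes in VC and stood above them, clear of Actg2, in AP.

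The balance between the myosin and the main actin was examined because Myh11 had moved most, a choice made after the data were seen. The log2 ratio of Myh11 to Acta2 was -2.25, -1.43, -1.98 and -2.43 across VC, against -0.70, -0.14, -0.34 and -0.64 across AP. Each AP value exceeded each VC value, including AP.3, where both genes were lowest within AP. The difference was 1.57 on the log2 scale, a description with no test because the pair was chosen for it. Over all genes, fold changes rose with transcript length (Spearman's rho 0.24 over 15962 genes, which are not independent replicates), and Myh11 has the longer transcript. With that trend removed from each library the difference was 1.07.

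AP.2 was the highest AP library and AP.3 the lowest for 8 of 9 members, while Npnt was highest in AP.3 and lowest in AP.2. The endothelial sum had the same extremes, 6266 normalized counts in AP.2 and 2477 in AP.3. Neither the share of all genes with this order nor correlations between other genes are given here, so the order is not read as particular to the members. AP.2 exceeded AP.3 by 2.96-fold for Myh11, 2.58-fold for Acta2 and 2.54-fold for Tagln. For Npnt the ratio of AP.2 to AP.3 was 0.672. In VC, VC.1 was lowest for 6 members, for Myocd in a tie with VC.4 at 0 reads, and VC.3 was highest for 5. The order was less shared there, since Lmod1 was lowest in VC.4, where Acta2, Cnn1 and Itga8 were highest. Correlations between members of the deviations from group means, pooled over both groups of libraries and given as a description, were all above 0 for the 28 pairs without Npnt (0.10 to 0.93, median 0.71). For the 8 pairs with Npnt they ran from -0.46 to 0.49.

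Among 11249 other genes with a mean of at least 50 normalized counts, the 8 that followed the members' shared deviation most closely over the 8 libraries were Herpud1 (r = 0.987), Tmem252 (0.985), Vwf (0.985), Ddit4 (0.981), Bag3 (0.972), Gm20481 (0.970), Per1 (0.965) and Sin3b (0.963). These values describe variation within groups, and points share their library's depth. Vwf, von Willebrand factor of endothelium, had 271, 387, 858 and 471 normalized counts across VC, against 936, 2285, 644 and 948 across AP. VC.3 and AP.2 were its highest libraries within their groups, where VC.3 was highest for 5 members and AP.2 for 8. None of the 8 was called by limma, with adjusted p from 0.0653 for Vwf to 0.941 for Gm20481, and Vwf passed without VC.3 (limma adjusted p = 0.0365) and by DESeq2 (adjusted p = 0.0223).

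Other parts of the smooth muscle machinery were followed in a list of 20 genes, of which 3 were called higher and 0 lower by limma, with 8 above 0 and a median log2 fold change of -0.16. At an unadjusted p under 0.05, 8 of the 20 were lower, and neither edgeR nor DESeq2 called any of them lower. Without AP.1, however, 7 were called lower by limma, and 6 without AP.1 and AP.2 together, while voom with sample weights called 2 and the study's criteria 1. Tpm2 and Tpm1, mentioned after their values were seen, were among those called lower without AP.1. Tpm2 had 6126, 1604, 1139 and 1941 normalized counts across AP and Tpm1 3821, 1743, 1153 and 1566. Each was highest in AP.1, as were the skeletal muscle genes. The part of skeletal muscle in the values of this list was not tested. Vcl, vinculin, which ties actin to adhesion sites, had 186, 231, 233 and 144 normalized counts across VC, against 424, 782, 567 and 521 across AP. All AP libraries were higher, with a log2 fold change of 1.52 (SE 0.22, limma adjusted p = 0.0064). Flna, filamin A, a widely expressed actin crosslinker, rose by 1.26 on the log2 scale (SE 0.20, limma adjusted p = 0.0088). Mylk, the kinase that starts contraction by phosphorylating myosin light chain, rose by 1.45 (SE 0.29, limma adjusted p = 0.0167), called in 20 of 23 alternatives. It was lost with the length trend removed (log2 fold change 1.03, limma adjusted p = 0.0693), without an intensity trend (0.0526) and without AP.1 and AP.2 (0.0630).

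Myl9, the light chain that Mylk phosphorylates, had 322, 338, 505 and 519 normalized counts across VC, against 734, 841, 378 and 530.0 across AP. AP.3 lay among the VC libraries, and the log2 fold change of 0.53 (SE 0.26) was not called (limma adjusted p = 0.196). Smtn, smoothelin, of contractile smooth muscle, was not called either (log2 fold change 0.35, limma adjusted p = 0.363). Des, desmin, an intermediate filament of smooth and skeletal muscle alike, had 2898, 5217, 2738 and 3206 normalized counts across VC, against 4765, 1058, 596 and 1105 across AP. AP.1 was high and the other AP libraries low, as for the skeletal muscle genes, and the log2 fold change of -1.33 (SE 0.50) was not called (limma adjusted p = 0.105). Without AP.1 it was -1.94 and was called (limma adjusted p = 0.0029).

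Of 15 genes for excitation and relaxation of smooth muscle, Atp2a2 and Kcnmb1 were called higher and 0 lower by limma, with 0 lower at an unadjusted p under 0.05 and 0 by edgeR or DESeq2. Higher calls numbered 4 by edgeR, 5 by DESeq2, 1 by limma with any single AP library left out and 3 without VC.1 or without VC.3. These counts include Kcnmb1, whose call is not read as a result, except with an AP library left out, where it failed the filter. Without VC.1 they also include Chrm3, as given below. Atp2a2 was called in 23 of 23 alternatives. The median log2 fold change was 1.13, also with Kcnmb1 set to its lower bound, and 14 were above 0. Atp2a2, the calcium pump of the sarcoplasmic reticulum, had 595, 1071, 882 and 741 normalized counts across VC, against 1440.4, 2447, 1772 and 2010 across AP. Every AP library exceeded every VC library (log2 fold change 1.23, SE 0.21, limma adjusted p = 0.0104). Kcnmb1, the smooth muscle subunit of the calcium-activated potassium channel, had 0 reads in each VC library and 7, 19, 13 and 7 reads across AP. Against 3 reads over the VC group its mean in AP was at least 5.57-fold higher. The gene passed the filter only through the AP libraries and so had to differ, and its call is not read as a result. The adrenergic receptor gene Adra1a (0, 10.3, 15.0 and 5.63 normalized counts in VC, 21.8, 16.7, 25.4 and 6.44 in AP) was not called (limma adjusted p = 0.252). Adra1b and Adra1d of the same list, mentioned after their values were seen, were not called either (limma adjusted p = 0.0830 and 0.171). For Adra1b, with 2, 4, 3 and 0 reads in VC and 50, 32, 12 and 20 in AP, the groups did not overlap (log2 fold change 2.20, called in 2 of 22 alternatives). The muscarinic receptor gene Chrm3 had 15, 0, 0 and 0 reads in VC and 11, 22, 11 and 9 in AP and was not called (limma adjusted p = 0.253). Without VC.1 it was called (limma adjusted p = 0.0298), but no VC read was then left, and that call is not read as a result.

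Of 12 transcription factor genes, 1 was called higher and 0 lower by limma, with a median log2 fold change of 0.11. At an unadjusted p under 0.05, 2 were lower, with 0 lower by edgeR and 1 by DESeq2. Limma called 1 lower without VC.1, with the length trend removed and without AP.1 and AP.2 together, as did voom with sample weights. Higher calls numbered 1 by edgeR and 2 by DESeq2. The gene called was Klf4, a repressor of contractile genes in smooth muscle that is also abundant in differentiating keratinocytes (log2 fold change 1.07, SE 0.19, limma adjusted p = 0.0108). Srf, serum response factor, had 176, 327, 302 and 289 normalized counts across VC, against 349.6, 426, 475 and 366 across AP. The groups did not overlap, yet the log2 fold change of 0.59 (SE 0.21) was not called (limma adjusted p = 0.0894). Its actin-regulated partners were not called by limma either, Mrtfa with a log2 fold change of 0.56 (limma adjusted p = 0.206) and Mrtfb with 0.65 (limma adjusted p = 0.0765), though DESeq2 called Mrtfb higher (adjusted p = 0.0393).

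The promoters were searched for the CArG box that serum response factor binds. The box is CC, then 6 bases that are A or T, then GG, and reads in the same form on both strands. In the RefSeq promoter table (build GRCm38.p6), 1.47% of 32851 windows of 250 bases before a gene start held a full box and 8.59% held one with at least 5 of the 6 inner bases A or T. Acta2, Cnn1, Lmod1, Itga8 and Npnt were in the table, and Actg2, Myh11, Tagln and Myocd were not. The Acta2 window held 2 boxes with 5 of 6, starting 84 and 34 bases before the RefSeq start, within the stretches chr19:34255438-34255467 and chr19:34255388-34255417 on the minus strand, inside an exon that GENCODE gives to a longer Acta2 transcript. The windows of Cnn1, Lmod1, Itga8 and Npnt held none. Of 10 other smooth muscle genes searched, Srf held 2 full boxes (within chr17:46556225-46556254 and chr17:46556205-46556234, minus strand). Vcl, called higher, and Myl9, not called, held 1 full box each (within chr14:20929161-20929190 and chr2:156775293-156775322, plus strand). Each stretch is the box with 10 bases on either side. Myl9 also held a box with 5 of 6, and Itgb1 and Mrtfa held 1 such box each. The called genes Mylk and Flna held none, nor did Smtn, Des and Mrtfb. The boxes stand in capitals below, for those of Acta2 and all full boxes. A match describes these letters and is no evidence of binding.
Acta2, 84 before the start: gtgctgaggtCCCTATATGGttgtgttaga
Acta2, 34 before the start: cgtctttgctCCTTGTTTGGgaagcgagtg
Srf, 82 before the start: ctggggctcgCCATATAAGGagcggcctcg
Srf, 62 before the start: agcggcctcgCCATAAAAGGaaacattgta
Myl9, 161 before the start: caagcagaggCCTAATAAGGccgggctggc
Vcl, 227 before the start: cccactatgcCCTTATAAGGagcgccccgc

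Of 13 genes for the integrin anchor, 2 were called higher and 0 lower by limma, with a median log2 fold change of 0.67 and 0 lower at an unadjusted p under 0.05 or by edgeR or DESeq2. Itgb1, the beta chain that pairs with integrin alpha 8, had 1082, 1230, 1229 and 1800.0 normalized counts across VC, against 1992, 2579, 1942 and 1898 across AP. VC.4 lay just below the AP libraries, and the log2 fold change was 0.67 (SE 0.19, limma adjusted p = 0.0433). With a library removed Itgb1, called in 11 of 23 alternatives, was called only without VC.4 (limma adjusted p = 0.0243), and in the rest the adjusted p ran from 0.0544 without AP.1 to 0.116 without AP.2. Tln1, talin 1, which links integrins to actin, rose by 0.78 on the log2 scale (SE 0.17, limma adjusted p = 0.0205), a call lost without AP.2 (0.0626) or AP.3 (0.0633), without AP.1 and AP.2 together (0.0846), without an intensity trend (0.0608) and with the length trend removed, where its log2 fold change was 0.34 (0.223). Without an intensity trend, and with the length trend removed, limma called 0 of the 13 genes, while edgeR called 1 higher and DESeq2 3. Egfl6, a matrix protein of the upper bulge, had 14.6, 23.6, 13.7 and 7.50 normalized counts in VC and 26.8, 18.3, 17.4 and 12.9 in AP and was not called (limma adjusted p = 0.618). Tnc, tenascin C, was not called (log2 fold change 1.30, SE 0.69, limma adjusted p = 0.228).

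Markers of vessels were given beside the members because vessel walls share their genes. Of 8 endothelial genes, 2 were called higher and 0 lower by limma, with 0 lower by edgeR or DESeq2 and at an unadjusted p under 0.05, and the median log2 fold change was 1.41. With a library removed, 1 to 5 were called higher, 5 without VC.4, while edgeR called 2, DESeq2 5 and limma without an intensity trend 0. The endothelial sum was 1313, 1280, 1720 and 2173 normalized counts across VC, against 3022, 6266, 2477 and 2738 across AP, with Pecam1 the most abundant gene and no marker at 0 in any library. The groups did not overlap, and AP.2 was highest, as for the members. Pecam1 rose by 1.44 on the log2 scale (SE 0.31, limma adjusted p = 0.0198), a call lost only without an intensity trend among 23 alternatives (0.0608), and Cdh5 by 1.75 (SE 0.47, limma adjusted p = 0.0386), a call lost without VC.1 (0.0848), VC.2 (0.0651), AP.2 (0.0880), AP.3 (0.0725) or AP.4 (0.0721), without AP.1 and AP.2 together (0.125), without an intensity trend (0.0949) and with the length trend removed (0.0628). The members summed to 1212, 1324, 1831 and 1676 across VC, against 3576, 5767, 2373 and 3362 across AP. The members' sum divided by the endothelial sum was 0.922, 1.03, 1.06 and 0.771 across VC, against 1.18, 0.920, 0.958 and 1.23 across AP. On that ratio the groups overlapped, and the part of vessels in the members' values was not tested. The members' mean sum was 1511 in VC and 3769 in AP. Of this, Acta2 gave 537 and 1261, Tagln 546 and 970 and Myh11 130 and 951. The ratio thus weighs the abundant members most, and none was taken for single members.

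Of 9 markers of pericytes and other mural cells, 2 were called higher and 0 lower by limma, with 0 lower by edgeR or DESeq2 and at an unadjusted p under 0.05, and the median log2 fold change was 0.45. The mural sum was 2088, 1733, 2189 and 2531 normalized counts across VC, against 3498, 4989, 2969 and 2878 across AP, with none at 0 in any library. All AP sums were above all VC sums. Notch3, a receptor of arterial smooth muscle and pericytes, had 180.1, 313, 243 and 161 normalized counts across VC, against 535, 1375, 858 and 745 across AP. It rose by 1.93 on the log2 scale (SE 0.29, limma adjusted p = 0.0068). Kcnj8, a potassium channel gene of pericytes, had a log2 fold change of 1.54 (SE 0.44, limma adjusted p = 0.0496) with overlapping groups, and with a library removed it was called only without VC.4 (limma adjusted p = 0.0268), with 0.0753 without VC.3 to 0.108 without AP.3 in the rest. Over all alternatives Kcnj8 was called in 8 of 23 and Notch3 in 23, and edgeR called 1 of the 9 markers higher and DESeq2 2, and limma 3 without VC.4 and 1 with any other single library left out. Rgs5, the pericyte regulator of G protein signalling, was not called (log2 fold change 0.60, SE 0.36, limma adjusted p = 0.288). The members' sum divided by the mural sum was 0.580, 0.764, 0.837 and 0.662 across VC, against 1.02, 1.16, 0.799 and 1.17 across AP, and the groups overlapped through AP.3. This ratio too weighs the abundant members most, and none was taken for single members. The part of mural cells in the members' values was not tested.

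**Figure D2:**
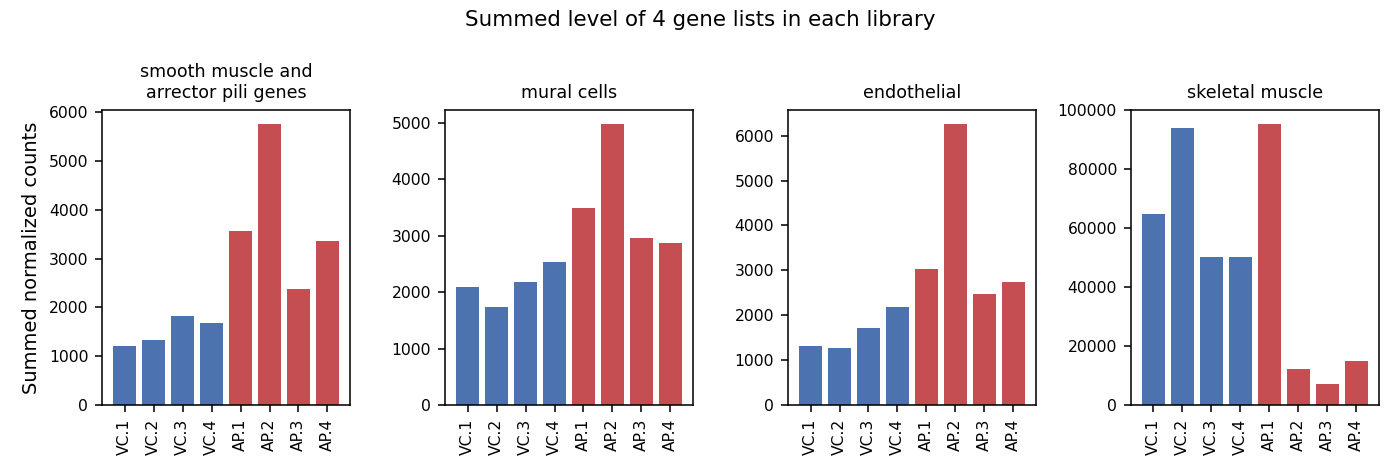
Summed normalized counts (vertical axes, linear, from 0) of the members, the mural cell, the endothelial and the skeletal muscle lists in each library, with VC in blue and AP in red. AP.2 has the highest sum for the first 3 lists, and AP.1 has the highest for skeletal muscle, next to VC.2.

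Skeletal muscle, from the thin muscle sheet below the dermis, was followed with 16 genes. They summed to 64635, 93729, 50010 and 50112 normalized counts across VC, against 95286, 12152, 7266 and 14932 across AP, with Acta1 the most abundant and none at 0 in any library. AP.1 was above every VC library, and the other AP libraries were below all of them. Of the 16 genes, 0 were called higher and 2 lower by limma, Casq1 (log2 fold change -2.25, SE 0.54, limma adjusted p = 0.0286) and Tnnc2 (-2.05, SE 0.59, limma adjusted p = 0.0497), and 0 were higher at an unadjusted p under 0.05 or by edgeR or DESeq2. Neither edgeR nor DESeq2 called any of the 16 lower, nor did limma without an intensity trend. At an unadjusted p under 0.05 by limma 12 were lower, and 6 by the study's criteria. Without AP.1, 16 of the 16 were called lower by limma, as without AP.1 and AP.2 together, and voom with sample weights called 11. The median log2 fold change was -1.78, although the AP mean was the higher for Myh1, Myh4, Ttn and Neb through AP.1. Acta1, skeletal actin, was not called (-1.92, SE 0.61, limma adjusted p = 0.0628), but without AP.1 its log2 fold change was -2.62 (limma adjusted p = 0.0024). The call of Casq1 was lost without VC.1 (limma adjusted p = 0.0697), VC.2 (0.0559), VC.4 (0.0503), AP.2 (0.0749), AP.3 (0.0852) or AP.4 (0.0797). That of Tnnc2 was lost in each such fit, from 0.0585 without VC.4 to 0.131 without AP.3, except without AP.1. The members in AP.1 lay near those in AP.4, with sums of 3576 and 3362. The part of the amount of deep muscle in the tissue taken was not tested.

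Epidermal genes were given because the study's methods state that interfollicular epidermis was removed, yet these genes were counted in every library. Of 11 suprabasal keratinocyte genes, 9 were called higher and 0 lower by limma, with 0 lower by edgeR or DESeq2 and at an unadjusted p under 0.05, and the median log2 fold change was 2.91. Their sum was 6510.4, 13764, 9439 and 6128 normalized counts across VC, against 45410, 43183, 126231 and 177627 across AP, with Krt10 the most abundant and none at 0 in any library. AP.3 and AP.4 were highest, which is not the order of the muscle genes, and the part of epidermis in the members' values was not tested. Krt10, a keratin of differentiating epidermis, rose by 3.85 on the log2 scale (SE 0.50, limma adjusted p = 0.0037), and Krt77 by 3.95 (SE 0.53, limma adjusted p = 0.0044). Krtdap, made by differentiating keratinocytes, rose by 2.91 (SE 0.45), Dsg1a, a desmosomal cadherin, by 2.70 (SE 0.42) and Krt1, the partner of Krt10, by 3.46 (SE 0.54), each with a limma adjusted p of 0.0084.

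Of 10 genes of basal and bulge epithelium, 2 were called higher and 0 lower by limma, with 0 lower by edgeR or DESeq2 and at an unadjusted p under 0.05, and the median log2 fold change was 0.45. The sum was 30106, 82677, 52698 and 26565 normalized counts across VC, against 56223, 55275, 101058 and 143843 across AP, with Krt14 the most abundant. Itga6 (log2 fold change 1.92, SE 0.31, limma adjusted p = 0.0090) and Col17a1 (1.73, SE 0.42, limma adjusted p = 0.0298), which hold basal cells to the basement membrane, were the genes called. Col17a1 lost its call without VC.1 (limma adjusted p = 0.0720), VC.4 (0.0544), AP.3 (0.0912) or AP.4 (0.0825), without an intensity trend (0.0809) and with the length trend removed (0.0573). The part of epithelium in the values of Npnt, Klf4 and Atp2a2 was not tested.

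Fibroblast and myofibroblast genes gave no call by limma. Of 10 fibroblast genes 0 were called in either direction by limma or edgeR, with 1 higher and 1 lower at an unadjusted p under 0.05, 1 lower by DESeq2 and 1 lower by limma without AP.1, and the median log2 fold change was 0.23. Their sum was 123287, 83914, 86235 and 228263 normalized counts across VC, against 259106, 193654, 139455 and 100305 across AP. Of 9 myofibroblast genes 0 were called by limma or edgeR, with 1 lower by DESeq2, 1 lower at an unadjusted p under 0.05 and 1 lower by limma without AP.1, and the median was -0.10. Their sum was 4566, 4294, 5470.0 and 14843 across VC, against 5416, 5981, 4851 and 4121 across AP, with Postn the most abundant, and the groups overlapped. In each of these lists 1 gene was also lower with voom with sample weights, without AP.1 and AP.2 together and by the study's criteria. VC.4, highest in the myofibroblast list, was also the VC library with the most Acta2, at 692 normalized counts.

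**Figure D3:**
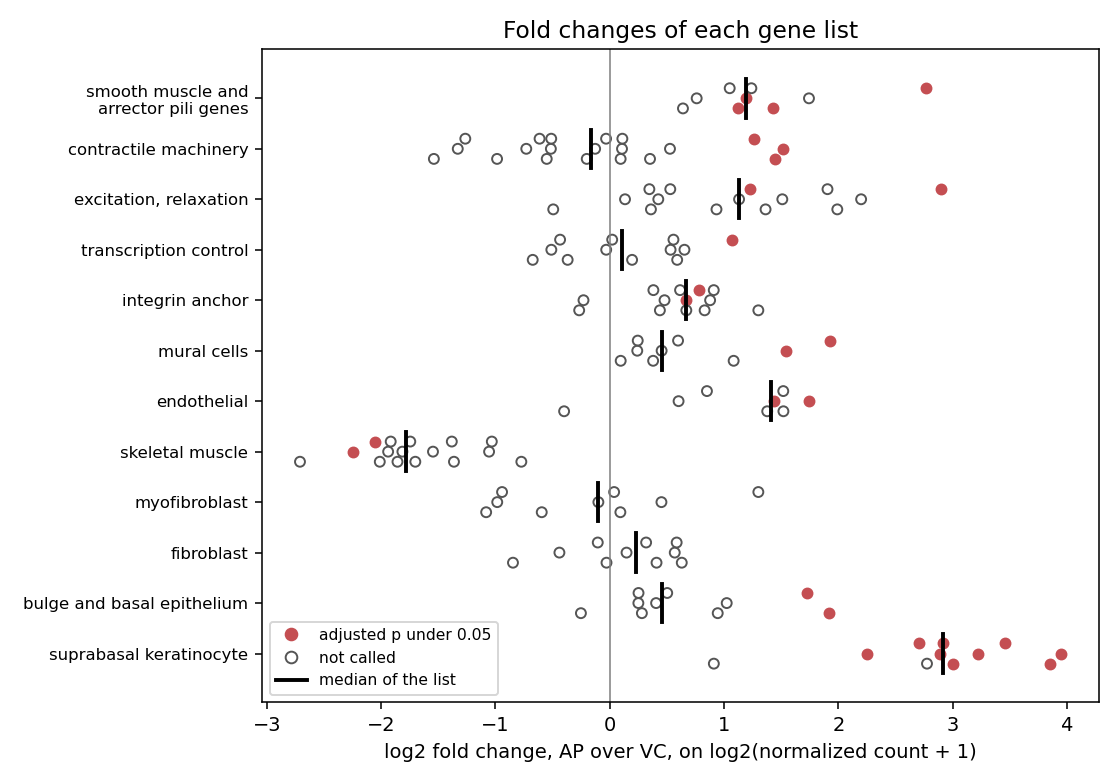
Log2 fold change of AP over VC on log2(normalized count + 1) for each gene of the 12 lists (horizontal axis). Filled red points have a limma adjusted p under 0.05, open points do not, and vertical bars are list medians, 1.20 for the smooth muscle and arrector pili genes.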

How the data were processed

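The deposited signal values are read counts per gene that the authors divided by 1 DESeq2 size factor per library, after alignment to mm10 with STAR. The labels name HTSeq and the paper's methods featureCounts for the counting. Of the authors' own DESeq2 columns, the mean was only compared with the mean of the values (largest gap 0.000188). Their log2 fold change, SE, statistic, p and adjusted p were not used. All 150160 values (100.0%) were whole multiples of a step per library (tolerance 0.05), so reads were recovered. Each column was tied to its group by name, and none to a single sample. Depth was 6454563 to 11190113 reads, and 3 reads were taken as the floor. Floors cover counting error only.

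Genes with 3 or more normalized counts in 4 or more of 8 libraries were tested with limma 3.58.1 (R 4.3.3, empirical Bayes with an intensity trend) on log2(value + 1), which understates changes of low genes. Benjamini-Hochberg adjustment covered the 15964 genes tested. Single values were compared by an exact permutation test over 70 assignments. On recovered reads, edgeR 4.0.16 called 1003 genes higher and 712 lower, and DESeq2 1.42.0 called 1677 and 1362, against 1011 and 639 by limma. Other alternatives were TMM, upper-quartile and total-count scaling, total counts without mitochondrial genes, no filter, a filter of 10, pseudocounts of 0.5 and 5, no intensity trend, voom with sample weights, reads drawn down, removal of a loess trend (span 0.3) on transcript length, the study's cut-offs applied to limma and each library left out. Leaving out AP.1 and AP.2 together was added after the data were seen. Coordinates and exon lengths came from GENCODE M21, which held 18766 of 18770 identifiers. The named genes are all members, the called genes of each other list (at most 5 by smallest p), further genes of the lists named in the rule and the 8 genes most like the members. Genes mentioned after their values were seen are marked as such. The members and lists were chosen with earlier results of these data known. The steps were tested on simulated data.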

Additional observations from a re-analysis of the deposited data

Results flagged for a closer look

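The summed level of the 13 integrin anchor genes was 8066 normalized counts in VC.4, far from 5072, 4962 and 4834 in VC.1 to VC.3. On the log2 scale it was the 1 sample that far from its group among 44 groups of 4 libraries, over the members, the lists and the mitochondrial share. On the unlogged values, checked after the data were seen, 4 samples were that far, the same sum in VC.4 and 3 others. These were the myofibroblast sum of 14843 in VC.4, the skeletal muscle sum of 95286 in AP.1 and the endothelial sum of 6266 in AP.2. Chance gives such a sample in about 1 of 20 groups.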

How the results depend on the processing

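Over 23 other fits and the study's criteria, 175 of the 214 values of single members kept their direction and their side of the threshold, 12 passed it where the main fit did not, and 27 no longer passed it. No member changed direction. The number of members called higher was 8 with total counts, 3 with total counts without mitochondrial genes and 2 without the intensity trend. It was 1 without AP.1 and AP.2, and 1 to 4 when each library was left out. The members' median was 2.07 with total counts. Among all genes, 8670 were higher and 65 lower with total counts, 376 and 216 without the intensity trend, and 1677 and 1362 with DESeq2. With the length trend removed 580 were higher. With each library left out, 211 to 1061 were higher and 96 to 812 lower. Among the genes most like the members, none of them called in the main fit, signs turned for Herpud1 (-0.076 to 0.50 with each library left out, -0.21 without AP.1 and AP.2), Ddit4 (-0.020 without both), Per1 (-0.0082 without both), Bag3 (0.54 with total counts) and Sin3b (0.63 with total counts, limma adjusted p = 0.0392). For Gm20481 they turned with voom (-0.42), without AP.1 and AP.2 (-0.76) and with single libraries left out (-0.63 to 0.78). The cause was not tested. Myocd gave no value under the filter of 10 or without AP.1 and AP.2. No paired analysis was made, because the labels give no pairing of VC with AP samples. The columns also carry no numbers that match the labels. Counts near 3 reads, as for Myocd and Kcnmb1, carry the largest counting error.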
